A study of Mus musculus with 4 samples.

Results

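The Igf2r and Airn imprinted domain on mouse chromosome 17 was examined for H3K27ac, the acetylated form of lysine 27 on histone H3 that sits at promoters and enhancers in use. The domain was taken from 10 kb before Slc22a3 to 10 kb after Airn, chromosome 17 from 12409972 to 12869884 in mm10, a stretch of 460 kb that holds the 4 genes Slc22a3, Slc22a2, Igf2r and Airn. All H3K27ac peaks within it were taken: 12 of the 91557 peaks listed for Smchd1-deleted cells and 4 of the 63613 listed for Smchd1-control cells on chromosomes 1 to 19 and X. The data are chromatin immunoprecipitation followed by sequencing (ChIP-seq) of cultured neural stem cells that were derived from female mouse embryos at embryonic day 14.5. There is 1 ChIP library per genotype, each with 1 whole-cell-extract input, so no value has a replicate error and no test between genotypes was possible.

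The embryos were Smchd1 del/fl, and the line carried a maternal X of 129 origin with an Xist deltaA allele and a paternal X of Castaneus origin. Deleted cells (titled del/del) had received a retrovirus carrying Cre recombinase and puromycin resistance (MSCV-Cre-puro), were put under puromycin after 24 h and were harvested on day 7, and control cells were the untransduced part of the line. Both cultures bear the same line number, and loss of Smchd1 cannot be told apart from transduction and selection. The control ChIP is titled fl/fl but has del/fl in its genotype field, the control input has del/del there, and the antibody field names H3K27me3 where the titles name H3K27ac. The deposited lists do not separate the parental alleles.

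In this domain the parental copies of the genes are used differently. Igf2r encodes the cation-independent mannose 6-phosphate receptor, which takes up insulin-like growth factor 2 (IGF2) for degradation and sorts lysosomal enzymes, and in most mouse tissues it is expressed from the maternal copy. Airn is a long noncoding RNA transcribed from the paternal copy, antisense to Igf2r, from a promoter inside the second Igf2r intron that is methylated on the maternal copy. Airn silences Igf2r on the paternal copy, and in the placenta it also silences Slc22a2 and Slc22a3, which encode transporters of organic cations. In neurons Igf2r is known to escape this silencing.

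The start sites of Igf2r and Airn are shown because the results turn on them. RefSeq promoter windows on GRCm38.p6 (the same primary chromosomes as mm10) run from 250 bases before to 50 bases after each start. The sequences read 5′ to 3′ along the strand of the gene, and capitals mark CpG dinucleotides, the bases at which promoter DNA can be methylated. The Igf2r window lies on the minus strand at chr17:12769657-12769956 and the Airn window on the plus strand at chr17:12741061-12741360.
Igf2r promoter: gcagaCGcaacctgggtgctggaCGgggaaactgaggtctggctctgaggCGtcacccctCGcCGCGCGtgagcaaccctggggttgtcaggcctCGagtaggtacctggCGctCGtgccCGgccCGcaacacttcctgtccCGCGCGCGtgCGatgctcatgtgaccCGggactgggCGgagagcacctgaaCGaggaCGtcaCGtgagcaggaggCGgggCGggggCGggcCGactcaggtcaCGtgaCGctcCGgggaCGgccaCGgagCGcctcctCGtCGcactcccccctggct
Airn promoter: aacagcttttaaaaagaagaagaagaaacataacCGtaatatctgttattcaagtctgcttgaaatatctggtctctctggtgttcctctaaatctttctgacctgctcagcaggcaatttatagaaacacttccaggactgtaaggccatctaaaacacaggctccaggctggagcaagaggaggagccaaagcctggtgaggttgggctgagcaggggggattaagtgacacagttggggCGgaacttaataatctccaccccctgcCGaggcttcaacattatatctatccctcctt
The Igf2r window held 34 CpG dinucleotides and 70.7% G or C, and the Airn window 3 and 45.7%. Among 32619 RefSeq start sites this put Igf2r at the 92.6 percentile of CpG number and Airn at the 27 percentile. The windows of Slc22a2 (8 CpG, 52.7% G or C) and Slc22a3 (5 CpG, 52.0%) lay between them. Letters of known promoter elements were searched on both strands. The Igf2r window had 2 copies of CACGTG, an E-box found in 7.20% of all windows, and 3 of GGGCGG, a GC box found in 35.9%, and no TATAAA or CCAAT. The Airn window had 1 GGGCGG and 1 TATAAA, which 13.7% of windows held. That TATAAA reads TTTATA in the printed sequence and so lies on the strand opposite to Airn. The distance of these letters from the start was not scored. CCAAT, found in 37.6% of windows, occurred 2 times for Slc22a2, and none of the 4 letter strings occurred for Slc22a3.

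Most neural stem cell markers were marked in both cultures. A gene was scored by peaks within 1 kb of either of its ends, and of 34324 protein-coding and lncRNA genes 38.7% were marked in each list, 6.65% in deleted cells alone and 1.45% in control cells alone. With a peak anywhere in the gene counted, these shares were 43.8%, 7.47% and 1.39%. By either score the remaining genes, marked in neither list, were the largest group. Of 12 neural stem cell markers, 10 scored in both lists, Msi1 in control cells alone and Pax6 in neither, while every one of the 12 had a peak somewhere in the gene in each list. By the gene-end score 2 of 8 neuron markers (Syt1 and Gap43), 1 of 6 fibroblast, 1 of 5 microglia and 0 of 5 trophoblast markers were marked in both lists. With a peak anywhere in the gene counted, these were 2 of 8, 2 of 6, 2 of 5 and 0 of 5. A further 1 neuron and 2 microglia markers then had a peak in deleted cells alone. Smchd1 itself was marked in each list, which does not test whether its floxed part was lost. Its fold enrichment, the authors' ratio of the fragment pileup at a peak's summit to the local background, was 7.72 in deleted and 8.88 in control cells. Filtered ChIP depth was 54194233 tags in deleted and 42277672 in control cells, a ratio of 1.28, and the lists of all peaks had a ratio of 1.44.

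Peaks were sparse in the domain and gathered over Igf2r and Airn. From the 3′ end of Igf2r to the end of Airn, 177 kb, there were 11 deleted and 4 control peaks. The 272 kb before it, with Slc22a3 and Slc22a2, held 1 deleted and 0 control peaks. Per 100 kb the whole domain had 2.61 deleted and 0.87 control peaks, against 5.31 and 3.72 on chromosome 17 between its first and last peak. The Igf2r gene alone had 9.16 deleted and 4.58 control peaks per 100 kb, and the Airn gene, which partly overlaps it, 5.06 and 0.843. The 177 kb of both had 6.2 and 2.25, so its control density was below that of chromosome 17. Fold enrichment ran from 2.29 to 5.33 in the 12 deleted peaks (median 3.69) and from 3.03 to 4.80 in the 4 control peaks (median 3.83). The medians of the whole lists were 3.53 and 4.03. No peak of the domain stood above the 81.7 percentile of the deleted list or the 67.6 percentile of the control list by fold enrichment.

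**Figure D1:**
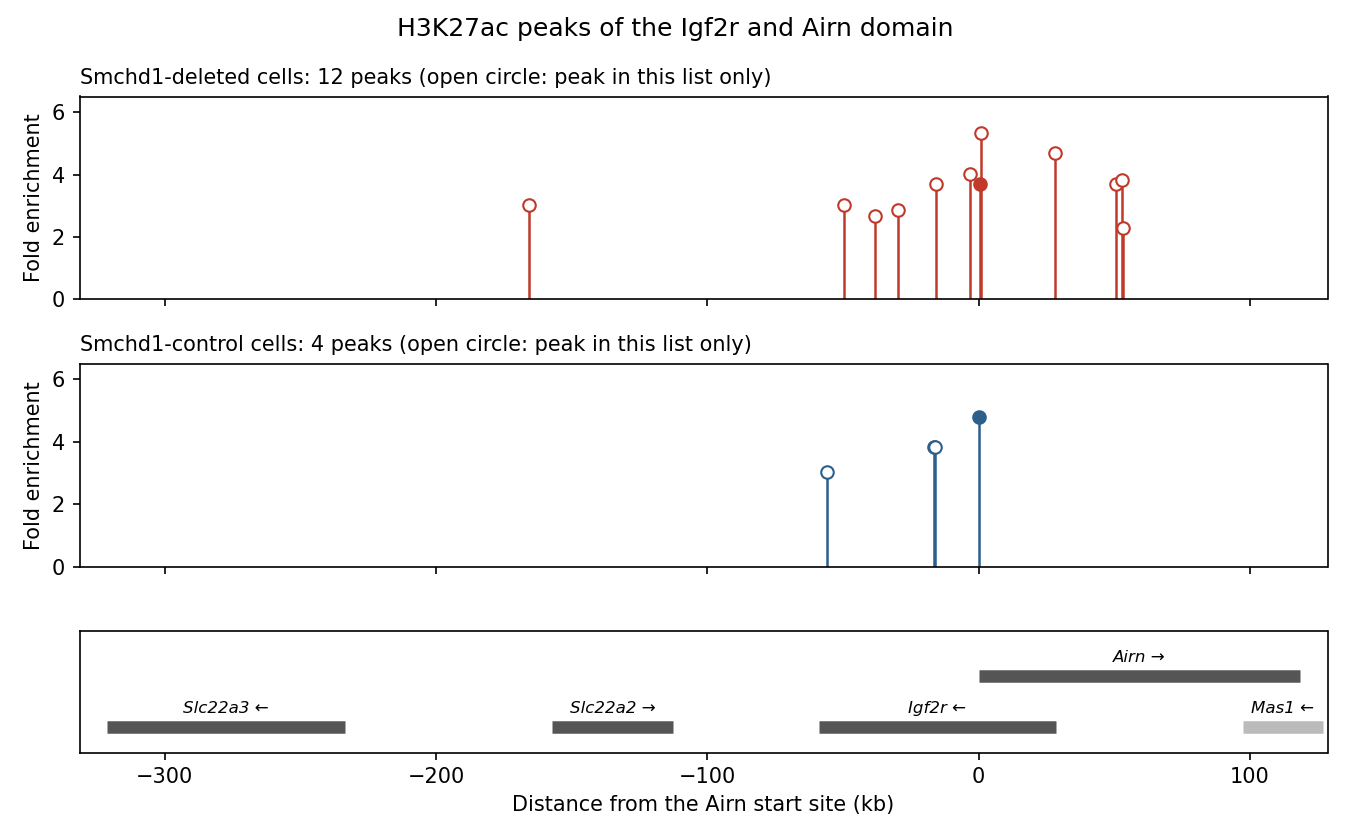
H3K27ac peaks of the domain by distance of the summit from the Airn start site (kb), with fold enrichment as the height of each stem, for deleted (top) and control cells (middle), and the genes with their direction of transcription where known (bottom; light grey, Mas1, which is not among the 4). Of the 12 deleted and 4 control peaks, 1 in each list overlaps a peak of the other list (filled circle), next to the Airn start.

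The lists overlapped at a single site. Of the 12 deleted peaks, 11, or 91.7% (exact Clopper-Pearson 95% interval 61.5 to 99.8, counting error only), overlapped no control peak by at least 1 base, and over all deleted peaks this share was 50.6%. Of the 4 control peaks, 3, or 75.0% (19.4 to 99.4), overlapped no deleted peak, against 24.3% of all control peaks. The intervals for the domain treat neighbouring peaks as independent, which they are not. The domain therefore had a ratio of 3 deleted peaks to 1 control peak, where chromosome 17 as a whole had 1.43.

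Airn was the member with a gene-start peak in both lists. In deleted cells a peak at chromosome 17 from 12741447 to 12741791 had a summit pileup of 21 fragments and a fold enrichment of 3.69 (2.35 to 5.56, exact Poisson 95% interval of the pileup, counting error only). In control cells a peak from 12741393 to 12741755 had a pileup of 23 and a fold enrichment of 4.80 (3.12 to 7.10). These peaks overlapped by 309 bases, lay 136 to 480 and 82 to 444 bases downstream of the Airn start, and had intervals of fold enrichment that overlapped. Fold enrichment is not scaled between libraries. The start of Airn thus carried H3K27ac in both cultures, at the highest enrichment of any control peak in the domain.

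A second Airn peak was listed in deleted cells alone. It ran from 12742174 to 12742660, 863 to 1349 bases downstream of the start, with a pileup of 31 and a fold enrichment of 5.33 (3.68 to 7.50), the highest of the domain. The control peak ended 418 bases before it, and the shared deleted peak 382 bases before it. With 487 bases it was the second widest peak of the domain, and the list medians were 311 bases for deleted and 313 for control peaks. Among all deleted peaks of that height on the same background, 12.8% overlapped no control peak.

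The start of Igf2r had a peak in deleted cells alone. It ran from 12769475 to 12769664, 42 to 231 bases downstream of the RefSeq start, with a pileup of 27, a fold enrichment of 4.70 (3.16 to 6.76) and a −log10 q of 9.47. It was narrow, at 190 bases, where the narrowest peak of the list had 171. No control peak lay within 27.7 kb, the nearest being the one at the Airn start. Because Airn is transcribed across it, the peak lies inside both genes. Among all deleted peaks of that height on the same background, 24.2% overlapped no control peak.

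**Figure D2:**
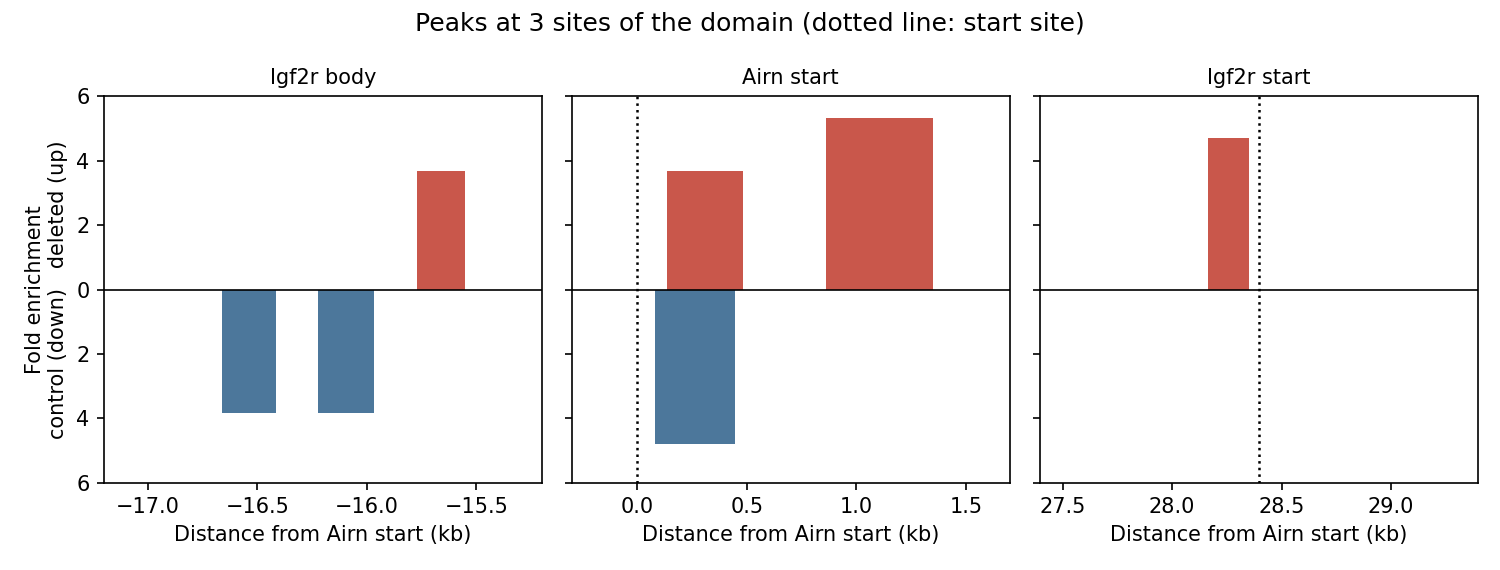
Peaks at 3 sites of the domain, in kb from the Airn start, with fold enrichment of deleted cells upward and of control cells downward. Bar width is the peak width and dotted lines mark the Airn and Igf2r start sites. At the Airn start both lists have a peak, at the Igf2r start only the deleted list does (4.70), and in the Igf2r body the peaks lie side by side without overlapping.

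Start sites with at least 20 CpG, the class that holds Igf2r, mostly carried the mark in both cultures. Of 8699 RefSeq start sites with at least 20 CpG in the window, 80.8% had a peak within 1 kb in each list, 4.94% in deleted cells alone, 0.586% in control cells alone and 13.7% in neither. Igf2r belonged to the 4.94%. Of 12291 start sites with at most 4 CpG in the window, the class of Airn, 7.62% had a peak in both lists and 86.5% in neither. The Airn window ended before the peaks at that start, which began 82 (control) and 136 (deleted) bases downstream of it. The CpG number of the acetylated Airn sequence was therefore not counted, and the class does not show that this sequence is poor in CpG. Slc22a2 and Slc22a3 fell in the class of 5 to 9 CpG, where 67.9% of 6056 start sites had no peak in either list, and neither of them had one.

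The body of Igf2r before the Airn start, 58.9 kb that Airn does not cover, held 5 deleted and 3 control peaks, none of which overlapped. The deleted peaks there were at 12691539 to 12691730 (fold enrichment 3.02), 12702866 to 12703039 (2.69), 12711381 to 12711703 (2.85), 12725538 to 12725758 (3.69) and 12737904 to 12738118 (4.03). The control peaks were at 12685466 to 12685640 (3.03), 12724652 to 12724895 (3.83) and 12725089 to 12725345 (3.83). At 1 place in this body both cultures were acetylated side by side: the deleted peak at 12725538 began 192 bases after the end of the second of a pair of control peaks. The control peak at 12685466, near the 3′ end of Igf2r, and the nearest deleted peak were 5.90 kb apart. The deleted peak at 12737904, with a pileup of 23, ended 3.27 kb before the nearest control peak, the one at the Airn start.

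The part of Airn beyond the Igf2r start, 90.2 kb, had 3 deleted and 0 control peaks. They formed a group, with 2.08 and 0.209 kb between neighbours, at 12791380 to 12791875 (fold enrichment 3.69, pileup 21), 12793951 to 12794161 (3.83, pileup 22) and 12794371 to 12794657 (2.29, pileup 15). The first, with 496 bases, was the widest peak of the domain. The last was the weakest by fold enrichment, at the 0.825 percentile of the deleted list, and the only peak of the domain whose local background (6.00 fragments) stood above the genome-wide floor. The nearest control peak, at the Airn start, was 49.6 kb or more away. Mas1, which encodes a G protein-coupled receptor and overlaps the end of Airn, had no peak in either list.

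Slc22a3 and Slc22a2, the organic cation transporters OCT3 and OCT2, had no peak in either list anywhere in the gene. The only peak of that side of the domain was a deleted peak between genes, at 12575272 to 12575539 (fold enrichment 3.02, pileup 17). Its summit lay 8777 bases before the start of Slc22a2, and the nearest control peak was 110 kb away. Of all deleted peaks of that height on the floor background, 79.2% overlapped no control peak. A gene without a listed peak was below the calling limit at this depth, which does not show that the mark was absent.

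Most peaks of the domain were of a height at which the lists often disagreed. The local background was at its floor for 11 of the 12 deleted and all 4 control peaks. That floor was 4.96 fragments for deleted and 3.96 for control cells, a ratio of 1.25, and equals the filtered tags times the fragment length over the effective genome size of the file headers. At the heights of the 11 deleted peaks the list-only share over all floor peaks averaged 59.5% and ran from 12.8% to 85.6%, and 10 of the 11 were list-only. At the heights of the 4 control peaks it averaged 34.5% and ran from 8.24% to 56.4%, and 3 of the 4 were list-only. The shares by height were added after the domain's counts were known. Scaled by the ratio of floors, 9 of the 11 deleted-only peaks had a pileup at or above 12, the lowest listed at the floor in control cells. A deleted pileup of 16 scales to 12.77, so every deleted floor peak of at least 16 fragments passes. Of all 78144 deleted floor peaks only those of 13, 14 and 15 fragments (79, 1067 and 3292) fail, so this count was largely fixed in advance. The deleted-only peak at 12794371, with a background above the floor, was scaled in the same way. By the same scaling all 3 control-only peaks had a pileup of 17.54 to 22.55, above 13, the lowest listed at the floor in deleted cells. Every control peak at the floor passes that limit when so scaled, so this result was fixed in advance. Both limits are the lowest pileups of a list, and a peak above them need not have been called. For the Igf2r start the scaled pileup was 21.56 and for the second Airn peak 24.75. The part of depth in the difference between the lists was not tested further.

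**Figure D3:**
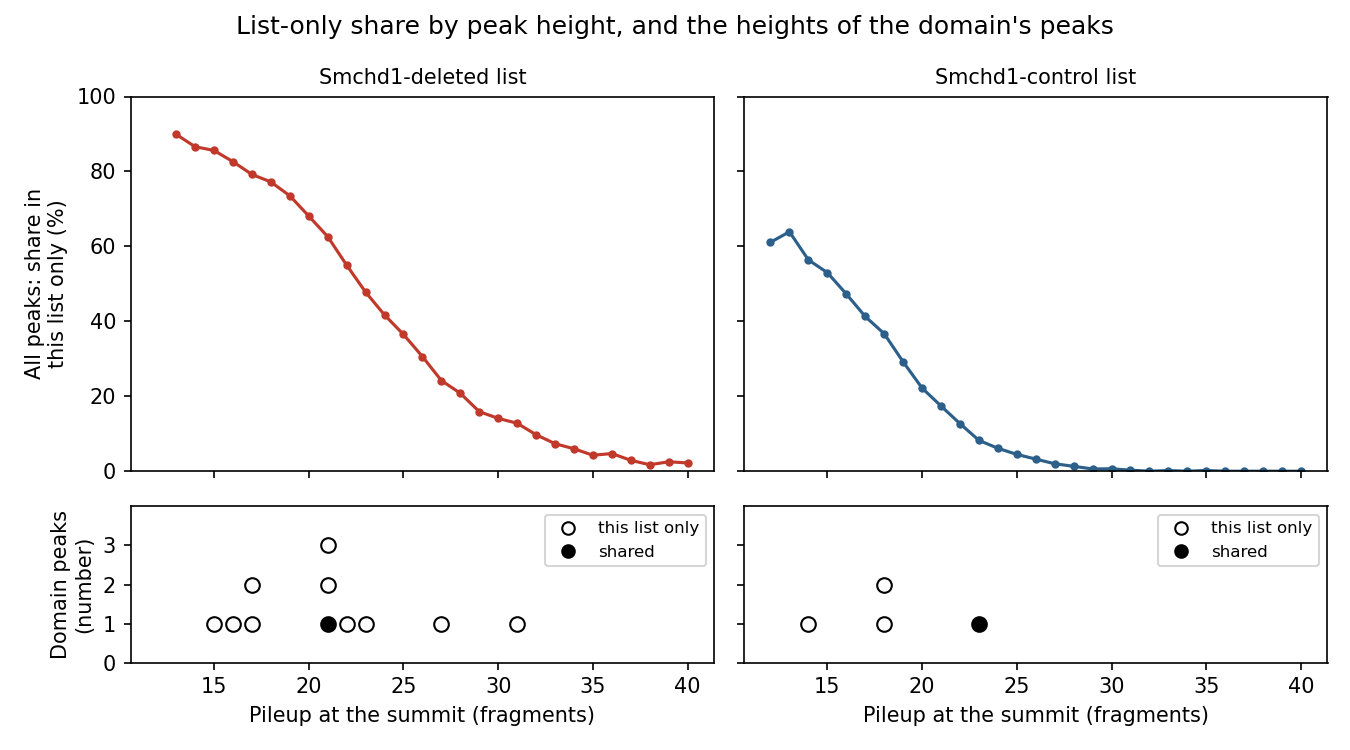
Top, percentage of all peaks at the floor background that overlap no peak of the other list, by summit pileup in fragments, for the deleted (left) and control list (right). Bottom, number of domain peaks at each pileup (open, in this list only; filled, shared): 2 deleted-only peaks, at the Igf2r start (27) and behind the Airn start (31), lie where fewer than 25% of peaks are list-only.

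Counted by gene ends, Airn was marked in each list, Igf2r in deleted cells alone, and Slc22a2 and Slc22a3 in neither. Of all genes, as given above, 38.7% were marked in each list and 6.65% in deleted cells alone, and most were marked in neither. With a window of 5 kb Igf2r was marked in both cultures, because that window reaches the control peak near its 3′ end, not a peak at its start. Around the start alone, within 1 kb, Igf2r was again marked in deleted cells alone.

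Most genes around the domain, mainly those from Mrpl18 to Sod2, were more strongly marked than Igf2r and Airn. Of 9 neighbours, leaving out Mas1 inside the domain, 7 were marked at a gene end in each list (38.7% of all genes), Pnldc1 in deleted cells alone (3.36), and Plg in neither. In both lists 6 of the 9 stood above the highest member, and Agpat4, Pnldc1 and Plg did not. Map3k4, a stress-activated kinase, had 12.1 in deleted and 9.08 in control cells. On the other side Mrpl18 and Tcp1, a mitochondrial ribosomal protein and a chaperonin subunit that share 1 peak, had 15.1 and 14.3. Wtap, a subunit of the RNA methyltransferase complex, had 11.9 and 12.1, Sod2, the mitochondrial superoxide dismutase, 8.73 and 6.14, Acat2, an acetyl-CoA acetyltransferase, 6.55 and 8.27, and Agpat4, an acyltransferase of phospholipid synthesis, 4 and 5.65. The median highest enrichment of neighbours with a peak was 10.3 in deleted and 9.08 in control cells, against 6.72 and 6.66 over all genes with a peak.

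**Figure D4:**
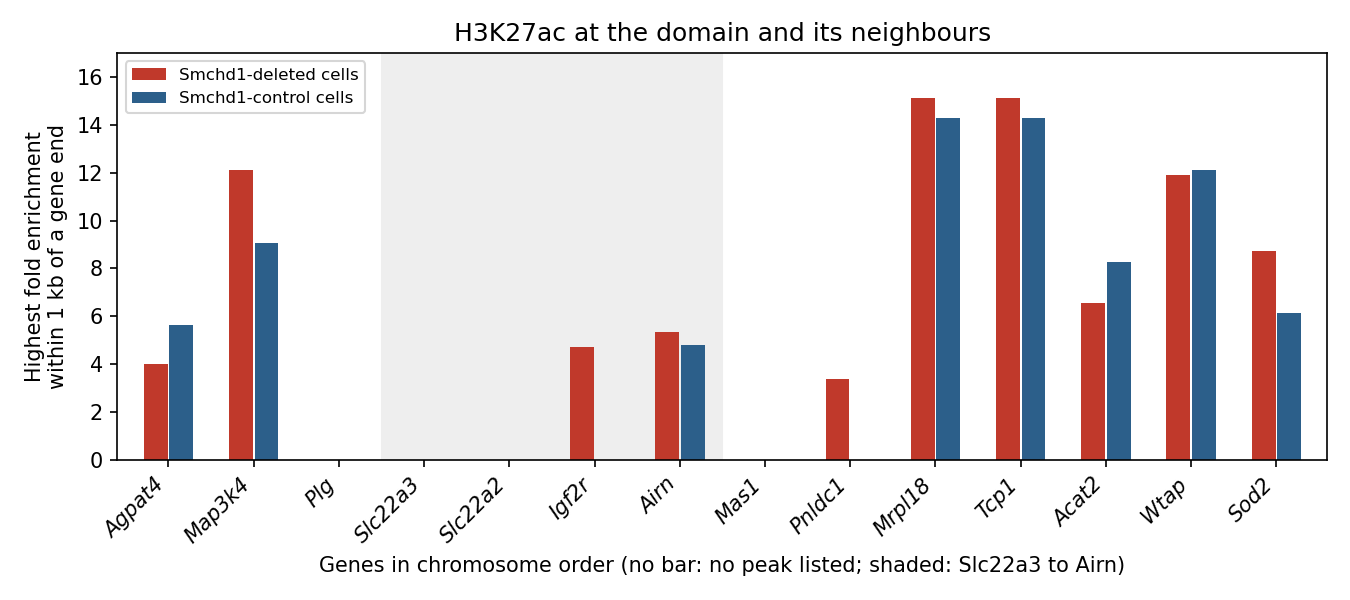
Highest fold enrichment of a peak within 1 kb of either gene end, for the genes from Agpat4 to Sod2 in chromosome order, in deleted and control cells (shaded, Slc22a3 to Airn; no bar, no peak listed). Map3k4 on one side and Mrpl18, Tcp1 and Wtap on the other exceed 9 in both lists, and the bars of Igf2r (4.70) and Airn (5.33 and 4.80) are lower.

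Other genes of the IGF2 and mannose 6-phosphate pathway were mostly listed in both cultures. At their ends 16 of 20 were marked in each list, against 38.7% of all genes, Igf2bp2 (4.03), which binds Igf2 mRNA, in deleted cells alone, and Igf1, Igf2 and Igf2bp1 in neither. The highest in deleted cells were Igf1r (13.4 in deleted and 11.1 in control cells), the signalling receptor for IGF1 and IGF2, Igfbp2 (12.8 and 13.9), a binding protein of these factors, and Gga3 (12.8 and 9.89), an adaptor that sorts mannose 6-phosphate receptors. M6pr, the cation-dependent mannose 6-phosphate receptor, had 7.57 and 9.68. The Igf2r start, at 4.70 in deleted cells, was below the pathway median of 7.67 in that list. Among 6 organic cation transporters, Slc22a5 (5.54 and 6.25), a carnitine transporter, was marked in each list and Slc22a4 (2.85) in deleted cells alone. The other 4, which include Slc22a2 and Slc22a3 of the domain, were marked in neither. Of all genes, 38.7% were marked in each list and 6.65% in deleted cells alone, and most were marked in neither. With a peak anywhere in the gene counted, 2 of the 6 were marked in each list and 1 in deleted cells alone, against 43.8% and 7.47% of all genes.

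Among 33 other imprinted genes found in the gene table, of 34 listed, 10 were marked at an end in each list, 7 in deleted cells alone, 0 in control cells alone and 16 in neither. The shares over all genes were 38.7%, 6.65% and 1.45% for the first 3 of these calls, and most genes were in neither. The 7 were Snurf (4.20), Nnat (3.86), Zrsr1 (3.83), Zim1 (3.53), Ndn (3.36), and Peg3 and Usp29, which share 1 peak (3.02). All were below Igf2r. Kcnq1ot1, an antisense noncoding RNA that silences its own imprinted cluster as Airn does, had 4.87 and 6.40, so that both antisense RNAs were marked in each list. The strongest in deleted cells were Ube3a (16.2 and 13.9), Impact (10.7 and 8.27) and Trappc9 (10.4 and 6.46). With peaks of the whole gene counted, 15 were marked in each list, 5 in deleted cells alone and 2, Grb10 and Plagl1, in control cells alone, against 43.8%, 7.47% and 1.39% of all genes. Of 14 factors of imprinting and of Airn silencing, 11 were marked at an end in each list (38.7% of all genes), led by Hnrnpk (17 and 14.7), Ring1 (14.1 and 13.3) and Eed (14.0 and 13.5), and all 14 had a peak somewhere in the gene in each list (43.8% of all genes).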

How the data were processed

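H3K27ac ChIP and input libraries of 2 cultures were compared (groups from the sample titles). Bowtie 0.12.9 placed the reads on mm10 and MACS2 2.1.0.20140616 called the peaks, per the submitters' processing notes. Per the file headers, the input of the same culture served as control for each ChIP, with a q-value limit of 0.05, keeping 1 tag per position and down-sampling the larger library. The deposited columns used were the pileup signal, the −log10 q, and the fold enrichment, a ratio to the local background. Peak positions and widths (other values) are as the authors deposited them.

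Overlap, gaps, ranks and gene-end calls (within 1 kb of either end) were computed in Python 3.11.15 with pandas 2.3.3, and overlap was tested on planted peaks. Local background was (pileup + 1) / fold − 1, and the floor is its lowest value in a list, within 2%. Genes and promoters came from RefSeq on GRCm38.p6, which here gives no exons. Sequence under the peaks was not analysed here. The 4 genes and all lists were chosen with earlier results of these data known. Every peak of the domain is named, and 1 gene of 2 lists is not reported here. Of the other lists, the text names genes in 1 list only and the 3 most enriched, and M6pr, Kcnq1ot1, Grb10 and Plagl1 were named after their values were seen. Alternatives varied thresholds, list length, margins, overlap and windows.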

Additional observations from a re-analysis of the deposited data

How the results depend on the processing

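No paired analysis was possible because each genotype has 1 ChIP library, with the replicate number 1 in both. For the same reason no library could be left out. Of the alternatives, thresholds, list length, sharing within 1 kb, the 5 kb window and a peak anywhere in the gene each moved some counts. At −log10 q of at least 5 the domain had 7 deleted and 1 control peaks, with 6 and 0 in that list only. With fold enrichment limited to 5 or more it had 1 and 0, with 1 and 0 list-only, the 1 being the second Airn peak. Lists of equal length left 7 deleted and 4 control peaks there, 6 and 3 of them list-only, and the Igf2r start peak was among the 6. When a peak of the other list within 1 kb counted as shared, 9 deleted and 1 control peaks were list-only. The second Airn peak, 418 bases from a control peak, and the deleted peak at 12725538 were then shared. So were the control peaks at 12724652 and 12725089. No margin around the genes, a margin of 50 kb and the merging of peaks up to 1 kb apart left the number of domain peaks in each list within 1.5 times its value. The stricter overlap did so for the number of list-only peaks, as did widening each peak by 200 bases, an alternative chosen after seeing the data. The list-only shares over all peaks, 50.6% and 24.3%, hold for the main setting alone. They are not given for the alternatives, so whether the domain's list-only counts differ from them there was not tested. With a window of 5 kb, or a peak anywhere in the gene, 2 members had a peak in both lists and 0 in the deleted list only, in place of 1 and 1. With 1 library per culture and domain pileups of 31 fragments or fewer, small differences between the cultures were not detectable.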

Other observations

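Between the domain and the strongly marked genes around it, each list had further peaks outside the domain's limits. Toward Map3k4, 2 sites were listed in both cultures: 12328127 to 12328470 in deleted cells (fold enrichment 4.53) with 12328085 to 12328470 in control cells (3.60), and 12352693 to 12353451 (4.87) with 12353183 to 12353484 (3.58). The deleted list alone had a further peak beside each, from 12327813 to 12328000 (2.75) and from 12353687 to 12353956 (2.85). Plg, the plasminogen gene next to Slc22a3, had a deleted-only peak in its body from 12383062 to 12383309 (3.36). Toward Mrpl18, the deleted list had peaks from 12884406 to 12884620 (4.20), between Mrgprh and Pnldc1, and at the near end of Pnldc1 from 12888478 to 12888648 (3.02) and 12888895 to 12889115 (3.36), the latter being the gene-end peak of Pnldc1 given above. Pnldc1 had a control-only peak in its body from 12893606 to 12893879 (2.82).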
